A study of Danio rerio with 10 samples.

Results

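The genes described here are named for abundant nuclear proteins that bind pre-mRNA or belong to the particles that splice it. They were chosen by name: every gene whose symbol begins with srsf, hnrnp or snrp, together with *nono*, *sfpq* and *pspc1*, provided that its mean over all samples was at least 10 normalized counts. This gave 56 genes of the 32520 listed, with 54 distinct symbols, and all 56 were among the 21563 genes tested. They were 17 SR protein genes, 24 hnRNP genes, 12 snRNP protein genes and 3 genes of the DBHS family. The limit removed none of the named genes. The gene nearest to it was the *hnrnpa0l* entry ENSDARG00000076380, with a mean of 36.6 normalized counts, followed by *srsf7b* with 122, and no gene with a matching symbol lay below 10.

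RNA was sequenced from pools of whole zebrafish larvae of the AB strain at 5 days post fertilization. The larvae had been kept from at most 6 h after fertilization in medium with 0.1% DMSO, which the controls also received, or in the same medium with a mixture of persistent organic pollutants (chlorinated, brominated and perfluorinated chemicals) designed after their levels in human blood. The mixture was given at 75 times (POP75×) or 125 times (POP125×) the human serum level. There were 3 control pools (replicates 1, 2 and 4), 3 POP75× pools (replicates 2, 3 and 4) and 4 POP125× pools (replicates 1 to 4). Each library is a pool of many larvae, so no value belongs to a single fish, and the p-values measure the spread between these pools.

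Splicing removes introns by means of the spliceosome, which is built on each intron from small nuclear ribonucleoproteins (snRNPs). Sm proteins form the ring shared by most of these particles, and other proteins, such as A and C of U1 and A′ and B″ of U2, belong to single particles. SR proteins carry domains rich in arginine and serine, bind mostly to exonic enhancers and recruit the U1 and U2 particles. Heterogeneous nuclear ribonucleoproteins (hnRNPs) coat nascent transcripts and often act against SR proteins, and DBHS proteins (NONO, SFPQ, PSPC1) form dimers on RNA and, in mammals, build the nuclear bodies called paraspeckles. Dividing and early progenitor cells are known for high levels of many of these transcripts.

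Between 13659239 and 20267255 reads fell on genes in each library. Over all tested genes the 10 libraries were clustered and divided into 3 sets, a number that was fixed and not found from the data. These sets cut across the conditions. Control 1, POP75× 4 and POP125× 3 and 4 formed the first set, control 2 and 4 and POP75× 3 the second, and POP75× 2 and POP125× 1 and 2 the third. Genes of the circadian clock stood apart in the third set, where their summed level was 26831 to 27683 normalized counts against 46653 to 55297 in the other 7 libraries. Low clock-gene level, as used below, refers to this sum only. The single genes did not all move together. At POP125× against control, 17 of the 30 tested clock genes had a log2 fold change below 0 and 13 above 0. Marker lists of neurons, skeletal muscle, liver, exocrine pancreas, lens, erythrocytes and photoreceptors had reads in all 10 libraries, as is usual for whole larvae.

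Splicing factor transcripts took up a smaller part of the reads in every exposed pool than in any control pool. The 56 genes together held 0.753%, 0.777% and 0.806% of all reads on genes in control 1, 2 and 4. They held 0.591%, 0.593% and 0.634% in POP75× 2, 3 and 4, and 0.633%, 0.586%, 0.621% and 0.576% in POP125× 1, 2, 3 and 4. The means were 0.779% ± 0.027 (SD, n = 3) for the controls, 0.606% ± 0.024 (SD, n = 3) for POP75× and 0.604% ± 0.027 (SD, n = 4) for POP125×, so neither exposed group overlapped the controls and both exposed groups covered about the same range. In whole larvae, fewer cells of a type and less RNA per cell cannot be told apart.

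The same separation was present for the 24 hnRNP genes, which held 0.479% to 0.518% of reads in the controls, 0.364% to 0.383% at POP75× and 0.356% to 0.393% at POP125×. SR protein genes held 0.203% to 0.211% in the controls, 0.154% to 0.194% at POP75× and 0.167% to 0.187% at POP125×. The DBHS genes went from 0.0392% to 0.0469% in the controls to 0.0300% to 0.0337% at POP75× and 0.0284% to 0.0298% at POP125×. For snRNP genes only POP125× was clear of the controls, with 0.0229% to 0.0241% of reads against 0.0299% to 0.0313%, since POP75× spanned 0.0228% to 0.0309%.

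**Figure D1:**
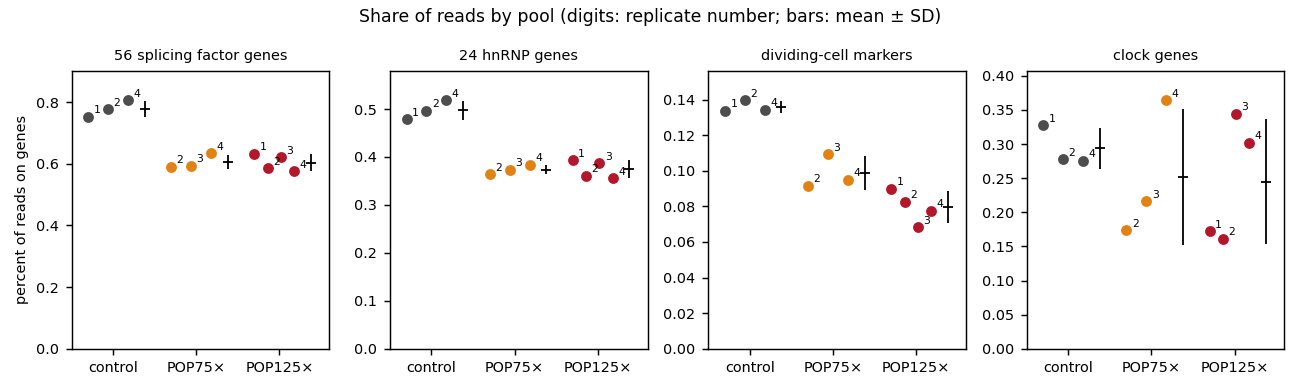
Percent of all reads on genes (y axis, linear from 0) held by the 56 splicing factor genes, the 24 hnRNP genes, the dividing-cell markers and the clock genes, in each pool of the 3 conditions (points, with the replicate number; bars are the mean ± SD). The splicing factor share is 0.753% to 0.806% in the controls and 0.576% to 0.634% in all 7 exposed pools, while the clock genes separate POP75× 2 and POP125× 1 and 2 from the rest.

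Scaling mattered most for POP75× 3 and control 1. After the deposited normalization, which divides each library by a single size factor, the summed level of the 56 genes was 111487, 140472 and 150478 normalized counts in control 1, 2 and 4. It was 94193, 128043 and 96305 in POP75× 2, 3 and 4, and 94690 to 100932 in the 4 POP125× pools. POP125× therefore stayed below every control on this scale too, but POP75× 3 lay above control 1. POP75× 3 had 20267255 reads on genes, the most of any, and the smallest size factor relative to its total. Its normalized counts are therefore higher than its shares of reads. Control 1 went the other way, with a size factor of 1.05 against 0.922 for scaling by total reads. It therefore stood farther below control 2 and 4 in normalized counts than in shares of reads. All tests below are on the deposited normalization.

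The first comparison asked which of these transcripts differed between POP125× and control. No splicing factor gene passed the test across all genes (limma, adjusted p below 0.05), where 1.70% of all tested genes passed, 0.348% as lower. At an unadjusted p below 0.05, 21 of 56 genes (37.5%) were lower and 0 higher, against a background of 9.50% of all genes lower and 11.5% higher. The log2 fold change was below 0 for 54 of 56 genes (background 50.7%), with a median of −0.41 against −0.01 over all genes and a range from −1.28 for *hnrnpa3* to 0.15 for the *srsf3a* entry ENSDARG00000100815. All 4 POP125× pools lay below all 3 controls for 27 of 56 genes (48.2%, background 11.6%) and above them for 0 (background 12.4%). On shares of reads in place of normalized counts, 26 of 56 lay below without overlap (background 10.0%).

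Other fits of the same table called some of the genes. DESeq2, a count model that was run on the recovered reads, called 8 genes, all lower: *nono*, *hnrnph1l*, *hnrnpabb*, *hnrnpc*, *hnrnpa1a*, *hnrnpub*, *hnrnpa1b* and *hnrnpm* (background 7.49% of all genes, 2.77% lower). With control and POP125× alone in the limma fit, *nono*, *hnrnpa1a*, *hnrnpa1b*, *hnrnpabb*, *hnrnph1l*, *hnrnpm*, *snrpc* and *snrpd1* passed, again 8 genes and all lower (background 7.11%, 2.46% lower). edgeR called 0 of 56 genes (background 1.32%, 0.301% lower), with 23 at an unadjusted p below 0.05. The limma count at an unadjusted p below 0.05 changed with single controls, being 11 without control 2, 11 without control 4 and 28 without control 1. It was 11 without the 3 libraries of low clock-gene level. Shares over all genes are not given here for edgeR at that p or for these refits. The counts may therefore not be particular to the 56 genes.

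**Figure D2:**
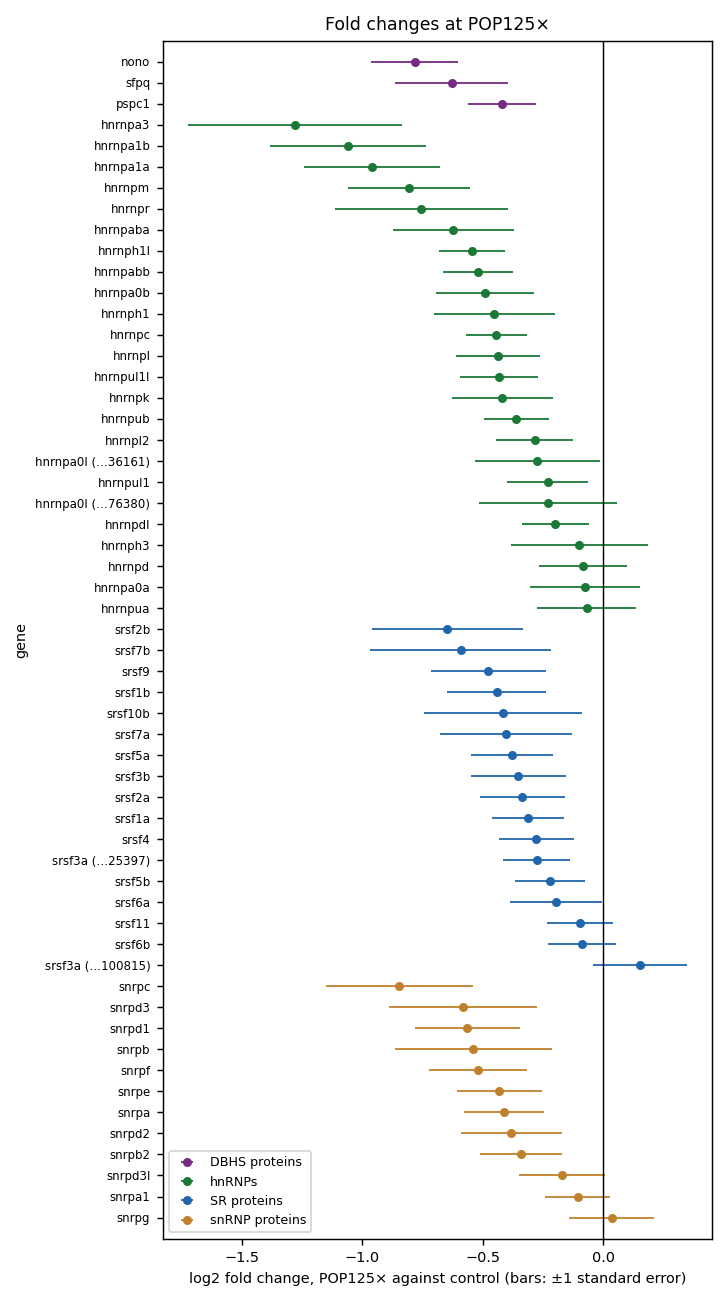
Log2 fold change of each of the 56 genes at POP125× against control (x axis, points; bars are ±1 standard error of the fit), grouped and coloured by role. All but 2 points lie below 0, and the hnRNP genes *hnrnpa3*, *hnrnpa1b* and *hnrnpa1a* are farthest to the left.

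Among the DBHS genes, *nono* came closest to the threshold of all 56 genes. It had 1790, 2242 and 2107 normalized counts in control 1, 2 and 4, then 1091, 1875 and 1454 in POP75× 2, 3 and 4, and 1169, 1084, 1237 and 1255 in POP125× 1 to 4. Every POP125× pool was below every control, whereas POP75× 3 lay within the control range. The log2 fold change at POP125× was −0.78 ± 0.18 (SE), with an adjusted p of 0.0559 in limma and of 0.00269 in DESeq2.

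*sfpq*, whose loss in zebrafish is known to disturb brain and motor axon development, had 3394, 5635 and 6089 normalized counts in control 1, 2 and 4 and 3263, 4935 and 2827 in the POP75× pools. The POP125× pools lay close together at 3176, 3234, 3025 and 3202. Control 1 was only just above them, and control 2 and 4 stood far above. The log2 fold change was −0.63 ± 0.23 (SE, adjusted p = 0.170, limma), and the estimate ranged from −0.89 to −0.47 when each library was left out in turn, with adjusted p from 0.0553 to 0.484.

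*pspc1* had 619, 478 and 556 normalized counts in the controls, 418, 472 and 505 at POP75×, and 379, 396, 425 and 440 at POP125×. Here control 1 was the highest control, and POP125× again lay below all of them (log2 fold change −0.42 ± 0.14 SE, adjusted p = 0.141, limma). When sample set was included as a covariate, *nono* and *pspc1* passed as lower (log2 fold change −0.41 and −0.42, adjusted p = 0.0272 and 0.0357, limma) and *sfpq* did not (−0.17, adjusted p = 0.326). In this model 12.6% of all genes passed, 4.54% as lower. The sets were found from these same values, which can make the p-values of this model too small, here and below. Only the first set holds both control and POP125× pools, and its 1 control is control 1. All 3 DBHS genes were below the controls without overlap at POP125×, against 11.6% of all genes. The other families are larger, and 8 of 12 snRNP (66.7%), 11 of 24 hnRNP (45.8%) and 5 of 17 SR genes (29.4%) were below without overlap.

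**Figure D3:**
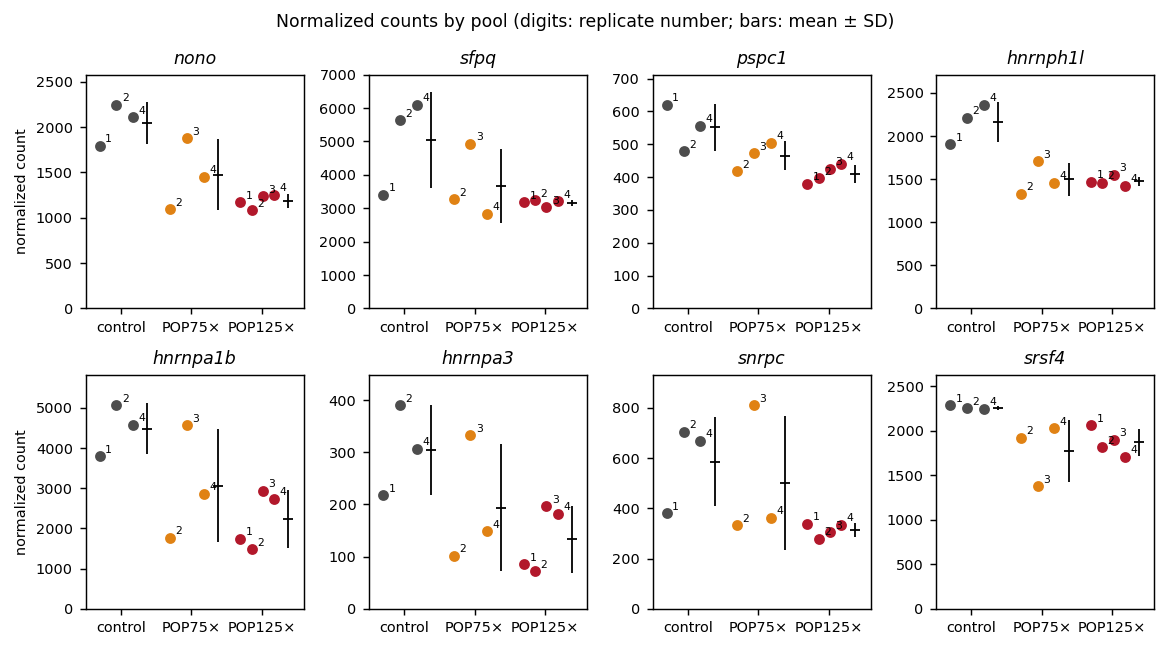
Normalized counts (y axis, linear from 0) of 8 splicing factor genes in each pool of the 3 conditions (points, with the replicate number; bars are the mean ± SD). In *nono*, *hnrnph1l* and *pspc1* all POP125× pools sit below all controls, in *sfpq* and *snrpc* control 1 sits near the POP125× pools, in *hnrnpa1b* and *hnrnpa3* replicates 1 and 2 of POP125× are the lowest, and in *snrpc* POP75× 3 is the highest of all.

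All 24 hnRNP genes had a log2 fold change below 0 at POP125×, with a median of −0.44. Of these, 12 (50.0%, background 9.50%) were lower at an unadjusted p below 0.05 and 11 (45.8%, background 11.6%) did not overlap the controls. *hnrnph1l*, a relative of hnRNP H, which binds runs of G, had 1903, 2214 and 2359 normalized counts in the controls, 1329, 1707 and 1460 at POP75×, and 1468, 1457, 1548 and 1422 at POP125×. Both exposed groups were below every control and covered similar levels. The log2 fold change was −0.55 ± 0.14 (SE, adjusted p = 0.0744 in limma and 0.00259 in DESeq2), and −0.34 with sample set as a covariate (adjusted p = 0.0424).

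*hnrnpabb* and *hnrnpc* followed the same order. *hnrnpabb*, of the hnRNP A/B type, had 4185, 4774 and 4349 normalized counts in the controls, 3143, 4141 and 3318 at POP75×, and 3355, 2884, 3047 and 3084 at POP125×. *hnrnpc*, whose mammalian protein binds U-rich tracts in nascent RNA, had 952, 959 and 1019 in the controls, 758, 873 and 733 at POP75×, and 780, 736, 671 and 686 at POP125×. Neither exposed group overlapped the controls for either gene. Their log2 fold changes at POP125× were −0.52 ± 0.15 and −0.45 ± 0.13 (SE), with adjusted p of 0.0967 and 0.0988 in limma and of 0.00587 and 0.00832 in DESeq2. With sample set as a covariate they were −0.35 and −0.38 (adjusted p = 0.0640 and 0.0349).

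*hnrnpa1a* and *hnrnpa1b*, the counterparts of mammalian hnRNP A1, which acts through splicing silencers, had larger differences and a wider spread. *hnrnpa1a* had 3032, 4933 and 4637 normalized counts in the controls, 1761, 4221 and 2310 at POP75×, and 1891, 1843, 2485 and 2298 at POP125×. *hnrnpa1b* had 3797, 5063 and 4577 in the controls, 1767, 4567 and 2866 at POP75×, and 1747, 1475, 2943 and 2733 at POP125×. In both genes the 3 lowest libraries were POP75× 2 and POP125× 1 and 2, the libraries of low clock-gene level, and POP75× 3 was among the controls. The log2 fold changes were −0.96 ± 0.28 and −1.06 ± 0.32 (SE), with adjusted p of 0.105 and 0.113 in limma and of 0.0229 and 0.0399 in DESeq2, and once sample set entered the model they were −0.25 and −0.33 (adjusted p = 0.133 and 0.0891).

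*hnrnpm*, which binds GU-rich RNA, had the same sample order. Its levels were 3086, 4208 and 4185 normalized counts in the controls, 1813, 3982 and 2548 at POP75×, and 1986, 1781, 2477 and 2515 at POP125× (log2 fold change −0.81 ± 0.25 SE, adjusted p = 0.120 in limma and 0.0421 in DESeq2). With sample set as a covariate its log2 fold change was −0.21 (adjusted p = 0.222). *hnrnpa3*, a relative of hnRNP A1, varied most of all 56 genes, with an SD over the 10 libraries of 53.8% of the mean. It had 218, 390 and 306 normalized counts in the controls, 102, 332 and 148 at POP75×, and 85.1, 71.8, 196 and 182 at POP125×. Its log2 fold change of −1.28 ± 0.44 (SE, adjusted p = 0.151, limma) was the lowest of the 56, but it was −0.23 in the model that included sample set, and POP125× 3 and 4 were only a little below control 1.

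*hnrnpub*, of the family of hnRNP U, a protein that also binds chromatin-associated RNA, behaved unlike *hnrnpa3*. It had 4693, 4583 and 4982 normalized counts in the controls, 3745, 3276 and 3543 at POP75×, and 4052, 3621, 3818 and 3338 at POP125×. Both exposed groups were below all controls, and the log2 fold change was −0.36 ± 0.14 (SE, adjusted p = 0.172 in limma and 0.0306 in DESeq2) and −0.44 after sample set was added to the model (adjusted p = 0.0225).

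The remaining hnRNP genes among the 20 of lowest p had smaller or less even differences. *hnrnpaba*, the hnRNP gene with most reads, had 11571, 17997 and 21729 normalized counts in the controls, 9590, 15623 and 9117 at POP75×, and 10815, 10520, 10902 and 10723 at POP125× (log2 fold change −0.62 ± 0.25 SE, adjusted p = 0.195, limma; −0.12 with sample set as a covariate). The 4 POP125× pools agreed within an SD of 164 normalized counts, while the controls had an SD of 5138, with control 1 near the exposed pools. *hnrnpul1l*, a relative of hnRNP U, had a log2 fold change of −0.43 ± 0.16 (SE), and *hnrnpl*, whose protein binds CA repeats, of −0.44 ± 0.18, both without overlap with the controls. *hnrnpa0b*, whose mammalian counterpart binds AU-rich elements, was at −0.49 ± 0.20, and POP125× 1 overlapped control 1 for this gene. With the covariate, *hnrnpul1l*, *hnrnpl* and *hnrnpa0b* were at −0.26, −0.28 and −0.25, and none of them passed.

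Several hnRNP genes stayed near the control level. *hnrnpd*, which encodes the AU-rich element binding protein known as AUF1 in mammals, was at −0.08 ± 0.18, *hnrnph3* at −0.10 ± 0.29, *hnrnpa0a* at −0.08 ± 0.23 and *hnrnpua* at −0.07 ± 0.21 (log2 fold change ± SE). For *hnrnpa0a* the sample order was turned round. It had 2721, 2643 and 2486 normalized counts in the controls and 3402, 1864 and 2409 at POP75×, then 3248, 2783, 2122 and 1970 at POP125×, so the libraries of low clock-gene level were the 3 highest. It was the one gene of the 56 with that order, against 10.6% of all genes, and once sample set entered the model it passed as lower (log2 fold change −0.50, adjusted p = 0.0132).

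The snRNP protein genes had a median log2 fold change of −0.42 at POP125×, with 11 of 12 below 0 (background 50.7%), 5 lower at an unadjusted p below 0.05 (41.7%, background 9.50%) and 8 without overlap (66.7%, background 11.6%). Among the 8 Sm ring genes, *snrpd1* had 441, 496 and 481 normalized counts in the controls, 254, 536 and 316 at POP75×, and 292, 309, 344 and 333 at POP125× (log2 fold change −0.57 ± 0.22 SE, adjusted p = 0.180, limma; −0.11 with sample set as a covariate). *snrpf* was at −0.52 ± 0.20 and *snrpe* at −0.43 ± 0.18, both below all controls at POP125×, and with the covariate they were at −0.32 and −0.47. *snrpe* was very even at POP125×, with 214 to 227 normalized counts, and control 1 was its highest control at 381 against 258 and 269.

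*snrpb*, the snRNP gene with most reads, had 860, 1440 and 1454 normalized counts in the controls, 672, 1919 and 756 at POP75×, and 760, 921, 770 and 911 at POP125×. Control 1 lay inside the POP125× range, and POP75× 3 was the highest of all libraries. The log2 fold change was −0.54 ± 0.33 (SE, adjusted p = 0.353, limma) and turned to 0.23 in the model that included sample set (adjusted p = 0.373). *snrpg* was the exception in the Sm ring, with 246, 190 and 190 normalized counts in the controls and 168 to 255 at POP125× (log2 fold change 0.03 ± 0.18 SE).

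Of the proteins specific to the U1 and U2 particles, *snrpc* had the largest difference. This gene encodes the C protein of U1, which helps the U1 particle to recognise the 5′ splice site. It had 381, 704 and 670 normalized counts in the controls, 332, 810 and 361 at POP75×, and 338, 280, 305 and 334 at POP125× (log2 fold change −0.85 ± 0.30 SE, adjusted p = 0.159, limma; −0.12 with sample set as a covariate, adjusted p = 0.608). The POP125× pools were below control 1 by a small margin and far below control 2 and 4. *snrpa* (the A protein of U1) was at −0.41 ± 0.16 (adjusted p = 0.191) and *snrpb2* (the B″ protein of U2) at −0.34 ± 0.17 (adjusted p = 0.276), both without overlap but near −0.10 under that covariate, and *snrpa1* (the A′ protein of U2) was at −0.11 ± 0.14 (adjusted p = 0.660) and did overlap.

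SR protein genes had the median closest to 0 of the 4 families. At POP125×, 16 of 17 had a log2 fold change below 0, with a median of −0.34. The 1 gene lower at an unadjusted p below 0.05 made up 5.88%, which is under the 9.50% of all genes, and 5 genes (29.4%, background 11.6%) did not overlap the controls. *srsf5a*, the SR gene with most reads, had 5195, 6960 and 7360 normalized counts in the controls, 5196, 6517 and 4897 at POP75×, and 5002, 5001, 4948 and 4844 at POP125×. The last 4 values differed by little, and control 1 was just above them (log2 fold change −0.38 ± 0.17 SE, adjusted p = 0.233, limma; −0.12 with sample set as a covariate).

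In normalized counts, control 1 was the lowest control for 15 of the 17 SR genes (88.2%, against 43.8% of all genes). In shares of reads, their sum in control 1 was 0.204%, between 0.203% in control 2 and 0.211% in control 4. *srsf2b*, a gene for SC35, an SR protein of nuclear speckles, showed the low control 1 plainly. It had 331 normalized counts in control 1 against 671 and 672 in control 2 and 4. Its POP125× levels were 319, 366, 326 and 343, and so overlapped control 1 (log2 fold change −0.65 ± 0.31 SE, adjusted p = 0.263, limma). The direction turned when sample set was a covariate (0.09, adjusted p = 0.660). *srsf1a* and *srsf1b*, the genes for SRSF1, were at −0.31 ± 0.15 and −0.44 ± 0.21, and for these genes no POP125× pool reached any control. With sample set as a covariate both were at −0.11.

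A few SR genes had very even controls. *srsf4* had 2288, 2253 and 2246 normalized counts in the controls, 1919, 1376 and 2030 at POP75×, and 2062, 1816, 1897 and 1706 at POP125×. Both exposed groups were below all controls, with a log2 fold change of −0.28 ± 0.16 (SE, adjusted p = 0.324, limma) at POP125×, and the gene passed as lower after sample set was added to the model (−0.49, adjusted p = 0.0265). The *srsf3a* entry ENSDARG00000025397 had 599, 602 and 611 normalized counts in the controls and 463 to 585 at POP125×, whereas the entry ENSDARG00000100815 had 178, 242 and 237 in the controls and 192 to 299 at POP125×. Both entries bear 1 symbol, and their log2 fold changes were −0.28 ± 0.14 and 0.15 ± 0.20 (SE). How alike the entries are was not examined, so a split of shared reads between entries of 1 symbol was not tested.

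The second comparison asked whether the lower dose gave the same differences. At POP75× no splicing factor gene passed in limma (background 0%), and 6 of 56 (10.7%) were lower at an unadjusted p below 0.05 with 0 higher, against 5.91% of all genes, 2.13% lower and 3.78% higher. The log2 fold change was below 0 for 54 of 56 genes (background 50.0%), with a median of −0.27, and the range was −0.79 to 0.18. All 3 POP75× pools were below all controls for 8 genes (14.3%, background 4.38%) and above them for 0 (background 4.94%). The 8 included *hnrnph1l*, *hnrnpabb*, *hnrnpc*, *hnrnpub*, *srsf1a* and *srsf4*, and the others were *srsf11* and the *srsf3a* entry ENSDARG00000025397. On shares of reads the number without overlap was 21 of 56 (37.5%, background 6.08%).

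*hnrnph1l* had the lowest p of the splicing factor genes at POP75×, with a log2 fold change of −0.53 ± 0.15 (SE, adjusted p = 0.531, limma), and it was the one gene that DESeq2 called at this dose (background 0.589%, 0.0788% lower). When sample set was added, *hnrnph1l*, *hnrnpub* and *srsf4* passed as lower (background 4.67%, 1.11% lower). The spread at POP75× was wide, the median SD being 23.3% of the mean over the 56 genes, against 14.9% in the controls and 9.77% at POP125×. Over all genes the corresponding values were 26.8%, 19.0% and 15.7%. Without POP75× 3 the median log2 fold change was −0.43, and 29 genes were lower at an unadjusted p below 0.05. The count was 17 without control 1, 3 without POP75× 2 and 2 without either control 2 or control 4. Shares over all genes are not given here for these refits, so the changes may not be particular to the 56 genes.

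The third comparison set the higher dose against the lower. No splicing factor gene passed (background 0%), 0 had an unadjusted p below 0.05 (background 4.87%), and no gene was below or above without overlap (background 2.75% and 2.95%). On shares of reads 1 gene, *snrpe*, was lower at POP125× without overlap (background 1.85%). DESeq2 called 0 as well (background 0.0974%), and DESeq2 and edgeR each gave 1 gene at an unadjusted p below 0.05. The share of all genes at that p is not given here for DESeq2 or edgeR. The median log2 fold change was −0.11, with 44 of 56 genes below 0 (background 51.3%), and it was 0.02 without POP75× 3. Both doses were compared with the same 3 control pools, so their fold changes are not separate evidence. Group means of the normalized counts went down from control to POP75× to POP125× for 42 of 56 genes (75.0%, background 28.8%), including all 3 DBHS genes and 7 of 8 Sm ring genes. However, 54 of 56 genes were below 0 against control at each dose (background 50.0% at POP75× and 50.7% at POP125×). The share of all genes is therefore not a like comparison for this order. In shares of reads, the mean sum of the 56 genes was 0.606% at POP75× and 0.604% at POP125×.

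**Figure D4:**
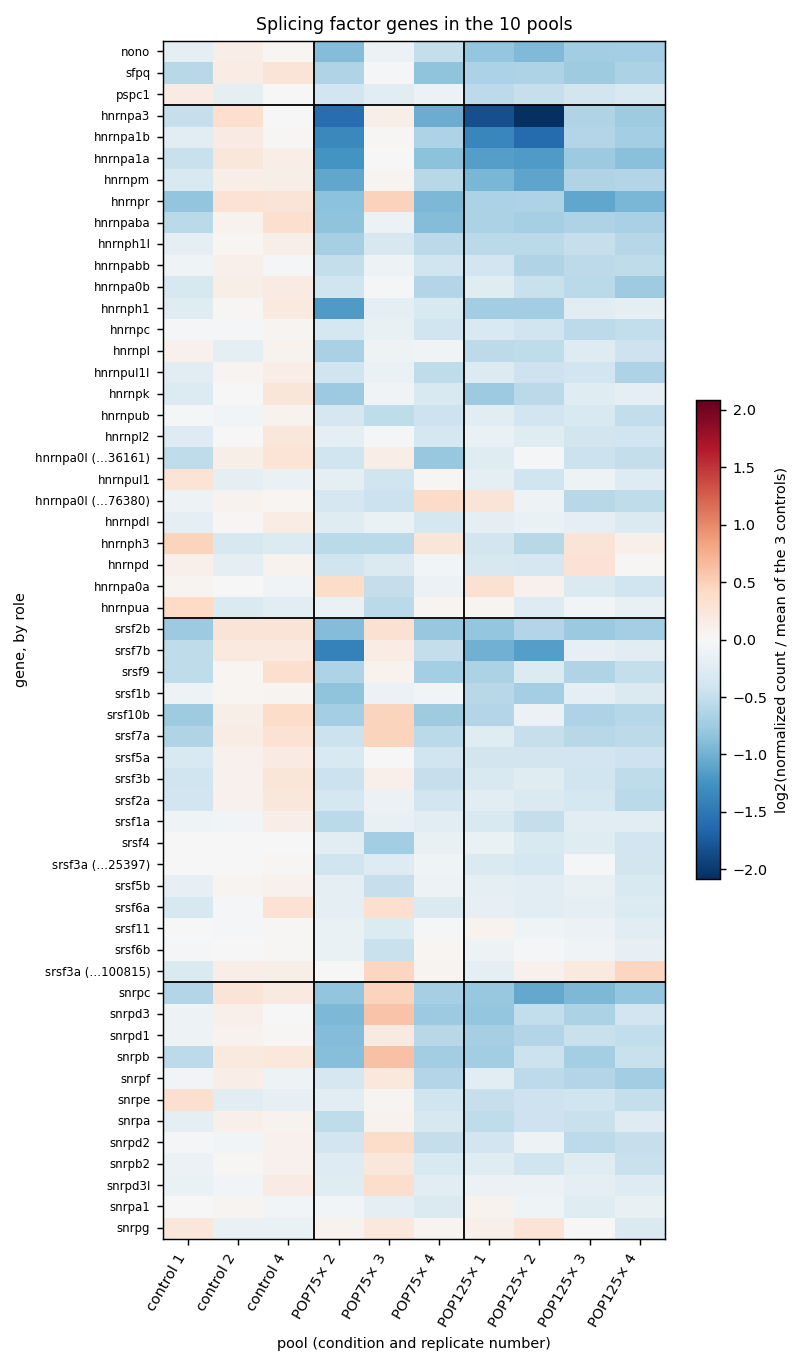
Log2 of the normalized count over the mean of the 3 controls (colour) for the 56 genes (rows, by role and by fold change at POP125×) in the 10 pools (columns, by condition and replicate number). Control 2 and 4 and POP75× 3 are the palest or reddest columns in 30 of the 56 rows, and the rows of *hnrnpa3*, *hnrnpa1b* and *hnrnpa1a* are darkest blue in POP75× 2 and POP125× 1 and 2.

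In normalized counts, the levels differed between the sample sets as well as between exposed and control pools. For 30 of 56 genes (53.6%) the 3 highest libraries were control 2, control 4 and POP75× 3, the libraries of the second set, against 17.3% of all genes. The 3 lowest were POP75× 2 and POP125× 1 and 2 for 14 genes (25.0%, against 9.88% of all genes), among them *nono*, *pspc1*, *hnrnpa1a*, *hnrnpa1b*, *hnrnpa3*, *hnrnpm* and *snrpd1*. Control 1 was the lowest control for 41 of 56 genes (73.2%, against 43.8% of all genes). POP75× 3 was the highest POP75× pool for 40 (71.4%, against 40.6% of all genes), including all 8 Sm ring genes. These orders are not given here for shares of reads. On that scale the 56 genes together held 0.593% in POP75× 3, against 0.753% to 0.806% in the controls.

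The first set holds control 1 and POP125× 3 and 4. Within it, the median log2 ratio of these exposed pools to the control was −0.20 in normalized counts, and 46 of 56 genes were below 0. There is 1 control in it and no test. The same ratio over all genes is not given here, so the shift may not be particular to the 56 genes. By role the median was −0.52 for the DBHS genes, −0.31 for the hnRNP genes, −0.32 for the snRNP genes and −0.06 for the SR genes. When sample set was included as a covariate over all 10 libraries, the median at POP125× was −0.135 and 10 genes passed (background 12.6%, 4.54% lower). The estimate turned from below to above 0 for 11 genes, among them *snrpb*, *srsf2b* and *srsf10b*, and from above to below 0 for *snrpg*. The median over all genes and the share of all genes that turned are not given here for this model. The 9 lower genes were *nono*, *pspc1*, *hnrnpa0a*, *hnrnpc*, *hnrnph1l*, *hnrnpua*, *hnrnpub*, *hnrnpul1* and *srsf4*, and the *srsf3a* entry ENSDARG00000100815 was higher. The sets were found from the data and are not groups of the study, and their part in the differences was not tested further.

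Markers of dividing cells moved the same way as the splicing factor genes. All 18 tested markers were below 0 at POP125× (background 50.7%), 6 of them passed as lower (limma, background 0.348%), and their median log2 fold change was −0.87. Their summed share of reads was 0.134%, 0.140% and 0.134% in the controls, 0.0915%, 0.109% and 0.0948% at POP75×, and 0.0897%, 0.0826%, 0.0682% and 0.0773% at POP125×, with no overlap between any of the 3 groups on this scale. In normalized counts their sum was 19807 to 25222 in the controls, 14396 to 23613 at POP75× and 10947 to 14297 at POP125×, so POP75× 3 overlapped the controls. The 11 markers of neural and retinal progenitors were all below 0 with a median of −0.63, and 1 passed as lower. These held 0.0463% to 0.0510% of reads in the controls, 0.0335% to 0.0431% at POP75× and 0.0301% to 0.0362% at POP125×. Markers of neurons had a median of 0.17, with 3 of 9 below 0, and those of skeletal muscle a median of −0.08. No marker passed in the other lists, whose medians were −0.95 for exocrine pancreas, −0.68 for photoreceptors, −0.27 for erythrocytes, −0.09 for liver and 0.80 for lens. All 6 exocrine pancreas, all 6 photoreceptor and all 5 erythrocyte markers were below 0 too, as were 3 of 6 liver and 0 of 5 lens markers. The part of these cell types in the differences of the splicing factor genes was not tested.

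Other genes of the splicing machinery gave smaller differences at POP125×. Of 68 further spliceosome genes (SF3A and SF3B subunits, PRPF, LSM and DHX genes and others), 61 were below 0 with a median log2 fold change of −0.27, 11 were lower (16.2%, background 9.50%) and 0 higher at an unadjusted p below 0.05, and 16 did not overlap the controls (23.5%, background 11.6%). Of these 68, 0 passed in limma and 3 in DESeq2, where 2.77% of all genes were called lower. The 68 genes together held 0.490% to 0.494% of reads in the controls, 0.403% to 0.448% at POP75× and 0.398% to 0.469% at POP125×. Neither exposed group overlapped the controls, so this separation in shares of reads was not particular to the splicing factor genes described above. The 9 genes of snRNP assembly, which load the Sm ring onto snRNA, had a median of −0.28, with 7 below 0 and 0 passing. They held 0.0121% to 0.0127% of reads in the controls, 0.00997% to 0.0115% at POP75× and 0.00965% to 0.0119% at POP125×, again without overlap. Another 42 splicing regulators, such as the genes of PTBP, ELAVL, MBNL and RBFOX proteins, have symbols that do not begin with srsf, hnrnp or snrp. They were separated by symbol only, not by protein family. Of these, 30 were below 0 with a median of −0.14. At an unadjusted p below 0.05, 9 were lower (21.4%, background 9.50%) and 1 higher, and 0 passed in limma and 4 in DESeq2. Their shares did overlap, with 0.598% to 0.702% of reads in the controls, 0.433% to 0.700% at POP75× and 0.533% to 0.729% at POP125×.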

How the data were processed

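The labels give mRNA libraries from pools of larvae made with a stranded kit, and the authors' methods name single-end sequencing and a standard RNA-seq workflow on GRCz11 with DESeq2 (version not given in the sources used here). The authors deposited 1 table of normalized counts, a signal in which the reads of each gene are divided by 1 size factor per library. Dividing by the value of 1 read gave whole reads for 100% of values (tolerance 0.001). The deposited mean, fold change and p-value columns of the authors' comparisons were not used, except the mean for the limit of 10. Log2(normalized count + 1) was fitted with limma 3.58.1 (mean-variance trend, all 10 samples, 1 coefficient per condition, p-values two-sided and adjusted by Benjamini-Hochberg) for 21563 genes, those reaching 10 normalized counts in 3 or more samples. Fold changes are on that scale. DESeq2 1.42.0 and edgeR 4.0.16 (quasi-likelihood test) were run on the recovered reads. The scripts were tested on simulated data. Further alternatives were the pseudocount (0.5 or 5), no filter, other scalings (TMM, total reads), no trend, 2 groups in the fit and a replicate block. Others were sample set as a covariate (average-linkage clustering, divided into a fixed number of 3 sets) and each library left out.

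The genes and lists were chosen with earlier results of these data known. Genes described singly were *nono*, *sfpq*, *pspc1*, the 20 of lowest p at POP125× and the one with most reads in each family, and others were singled out after their values were seen. All 56 identifiers were in the name table and 54 symbols in RefSeq's gene table (names only). The *hnrnpa0l* entry ENSDARG00000076380 is named *gzf1* in the name table, so its family is uncertain. No sequences were used. No libraries agreed within sampling noise. Even the lowest-count gene had over 26 normalized counts in each library. For genes with counts this low, counting noise can still add to the spread, and its part was not tested.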

Additional observations from a re-analysis of the deposited data

Results flagged for a closer look

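Of the 56 splicing factor genes, 1 had a POP125× pool far from the other 3. *srsf10b*, a gene for an SR-related splicing repressor, had 471 normalized counts in POP125× replicate 2, while the nearest pool had 340 and the lowest 326. The gap took up 0.902 of the group's range, above Dixon's critical value for 4 samples. Chance alone flags about 1 in 20 such groups.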

How the results depend on the processing

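At POP125× against control, 0 splicing factor genes passed in limma with the other pseudocounts, scalings, filter or trend setting, or with any library left out (0 to 0). The number was 8 with DESeq2, 8 when the fit held 2 groups, and 10 when sample set was a covariate. At POP75× it was 1 with DESeq2 and 3 with that covariate, and 0 to 0 with a library left out. The cause of these changes was not tested. *nono* was the one gene called in all 5 alternatives that called any gene at POP125×. The share of all genes called in all 5 is not given here. *nono* did not pass in edgeR (adjusted p = 0.0587) or in limma without the third set (adjusted p = 0.193). With 1 library left out in turn, its adjusted p in limma was 0.0524 to 0.259. The median log2 fold change at POP125× was −0.135 with that covariate and −0.203 within the first set alone (added after seeing the data), against a pooled SD between replicates of 0.157. It ranged from −0.51 to −0.31 with each library left out, from −0.43 to −0.18 at POP75×, and from −0.21 to 0.02 for POP125× against POP75×, where 0 to 0 genes passed. Without the third set (added after seeing the data) it was −0.42, with 0 genes called. Medians over all genes are not given here for any of these refits. Among the 22 genes chosen by the naming rule, 402 refits kept direction and side of the threshold, 37 newly passed, and 1 reversed (*snrpb*, 0.23 with that covariate). No gene passed in the main fit, so a lost pass was not possible. Estimates that moved toward 0 also counted as kept, such as those of *hnrnpa3* and *snrpc* with that covariate.

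Replicate numbers are shared between conditions, but same-numbered libraries did not deviate together (correlations of deviations from −0.414 to 0.486), so the numbers were not taken as pairs. With a replicate block, 5 genes passed at POP125× in limma, all lower: *hnrnpa1a*, *hnrnpa1b*, *hnrnpa3*, *hnrnpm* and *nono* (background 5.40%, 1.77% lower). DESeq2 with the replicate block called 12 at POP125×, all lower (background 11.7%, 4.39% lower). At POP75× it called 3, all lower (background 0.816%, 0.162% lower). Over all genes, the number called at POP125× was 366 in limma, 1614 in DESeq2, 1534 with 2 groups, 1164 with the replicate block and 2707 with the covariate.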
